A study of Sus scrofa with 36 samples.

Results

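Solute carriers are membrane proteins that move amino acids, fatty acids, ions, metals, vitamins, nucleotides and many other small molecules across the plasma membrane or into organelles, either down a gradient or coupled to the movement of an ion. They are grouped into numbered families that share sequence and, in large part, substrates, and the SLC25 family sits in the inner mitochondrial membrane. In the heart such carriers bring in the fuel, the taurine and the carnitine on which contraction depends, and exchange sodium, protons, calcium and chloride across the cell membrane.

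The set described here holds protein-coding genes whose symbol begins with SLC and a number, without the SLC2A hexose carriers and without SLC25A20, the carnitine-acylcarnitine carrier of mitochondria. Of 106 such genes in the gene table, 76 reached 10 counts or more in 3 or more libraries (of 12) and were tested, among 5526 genes of any kind that passed this filter. The rule uses names and counts and no expression change, but it was set with earlier results of these data known. The remaining 30 stayed below the filter, and 7 of these had no count in any library: SLC35F4, SLC24A5, SLC7A14, SLC22A12, SLC22A11, SLC22A9 and SLC34A1. Just outside it were SLC25A2, with 63 counts in all and 2 libraries at 10 or more, and SLC25A45, with 53 counts and 1 such library. Just inside were SLC35D3, with 109 counts and 3 such libraries, and SLC22A14, with 105 counts and 4 such libraries. Of the 76 genes, 60 had at least 10 counts in all 12 libraries. By position, 21 were on chromosome 1, 13 on chromosome 2, 21 on chromosome 6 and 21 on chromosome 13, the chromosomes that the table covers. Solute carrier genes elsewhere in the genome were not analysed here. One of the 76, SLC7A6OS, is named for its place opposite SLC7A6 and is not a transporter.

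The study followed the hearts of domestic Yorkshire pigs, of both sexes and without treatment, from the first day after birth (P1) to P3, P7 and P28. Total RNA of 12 pigs, 3 at each age, was freed of ribosomal RNA and sequenced by CD Genomics, and reads were counted per gene. Each library came from 1 pig, and the libraries are called by age and by the number in the table (replicates 4, 5 and 6). The RNA came from heart tissue, so that fewer cells of a type and less RNA per cell cannot be told apart for any gene below.

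Total counts per library ranged from 8887176 to 14883849, of which 41699 to 71653 fell on the 76 solute carriers. Genes annotated as the signal recognition particle RNA took 7.09% to 19.7% of a library. One library stood apart: the P3 pig of replicate 5 had the lowest total and was the highest of the 12 libraries for 17 of the 76 solute carriers (22.4%) and the lowest for another 17 (22.4%), beside 22.2% and 22.7% over all genes tested. For each comparison the count of calls at an adjusted p under 0.05 is given with and without this library, as are the counts and the spread at P3. Next came the P28 pig of replicate 4, highest for 12 (15.8%) and lowest for 12 (15.8%), beside 14.2% and 12.2% over all genes tested. Cardiomyocyte markers were abundant at every age, at 77660 to 108700 CPM (counts scaled to a common library size) summed over 8 genes. From P1 to P28, CKM and MYBPC3 of this list rose and ACTC1 fell. The fibroblast markers TCF21 and FBN1 together held 3636 to 4040 CPM at P1 and 972 to 1214 CPM at P28, and both fell. Of 6 leukocyte markers 3 rose (CD22, TYROBP and SPI1). Their list summed to 771 to 815 CPM at P1 and 755 to 895 CPM at P28. Most of this sum was CD79A (628 CPM at P1 and 559 CPM at P28), which did not pass. TEK rose among 5 endothelial markers, MBP rose of 2 neural markers, PPARG fell as the 1 adipocyte marker tested, and none of 3 smooth muscle or 2 erythroid markers passed. No marker that the table holds was at 0 in all libraries. The part of these cell types in the solute carrier results was not tested.

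Levels were compared between genes per kilobase of gene model (RPKM), and differences between ages were tested on counts. The 76 solute carriers spanned 0.145 to 112 RPKM as the mean of the 12 libraries, with 33 at 10 RPKM or more and 16 under 1 RPKM. Their median was 8.30 RPKM, against 13.04 RPKM for all protein-coding genes tested. Mitochondrial carriers led the list: SLC25A34, a carrier of unsettled substrate, was highest at 112 RPKM, SLC25A51, which brings NAD+ into mitochondria, stood at 54.3 RPKM, and SLC25A36, which carries pyrimidine nucleotides, at 43.6 RPKM. SLC27A1, a fatty acid transport protein of muscle and fat, came next after SLC25A34 at 75.2 RPKM, and SLC39A13, a zinc carrier of intracellular membranes, was just above SLC25A36 at 44.2 RPKM. SLC3A2 (34.1 RPKM) is the heavy chain that places amino acid exchangers such as SLC7A5 in the membrane. The remaining genes of the first 10 were SLC35A4 (32.3 RPKM), the potassium-chloride cotransporter SLC12A4 (28.7 RPKM), the fatty acid transport protein SLC27A4 (26.3 RPKM) and the copper importer SLC31A1 (24.6 RPKM). Between neighbours in this order the ranges of the 4 age means overlapped in 7 of 9 pairs. The age means were apart only from SLC27A1 (68.1 to 90.7 RPKM) to SLC25A51 (48.9 to 59.9 RPKM) and from SLC25A36 (36.6 to 55.1 RPKM) to SLC3A2 (31.3 to 35.7 RPKM). Single pigs were not compared in this way. SLC25A34 ranged from 55.0 RPKM at P7 to 151 RPKM at P3, so that it was not the highest at every age.

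**Figure D1:**
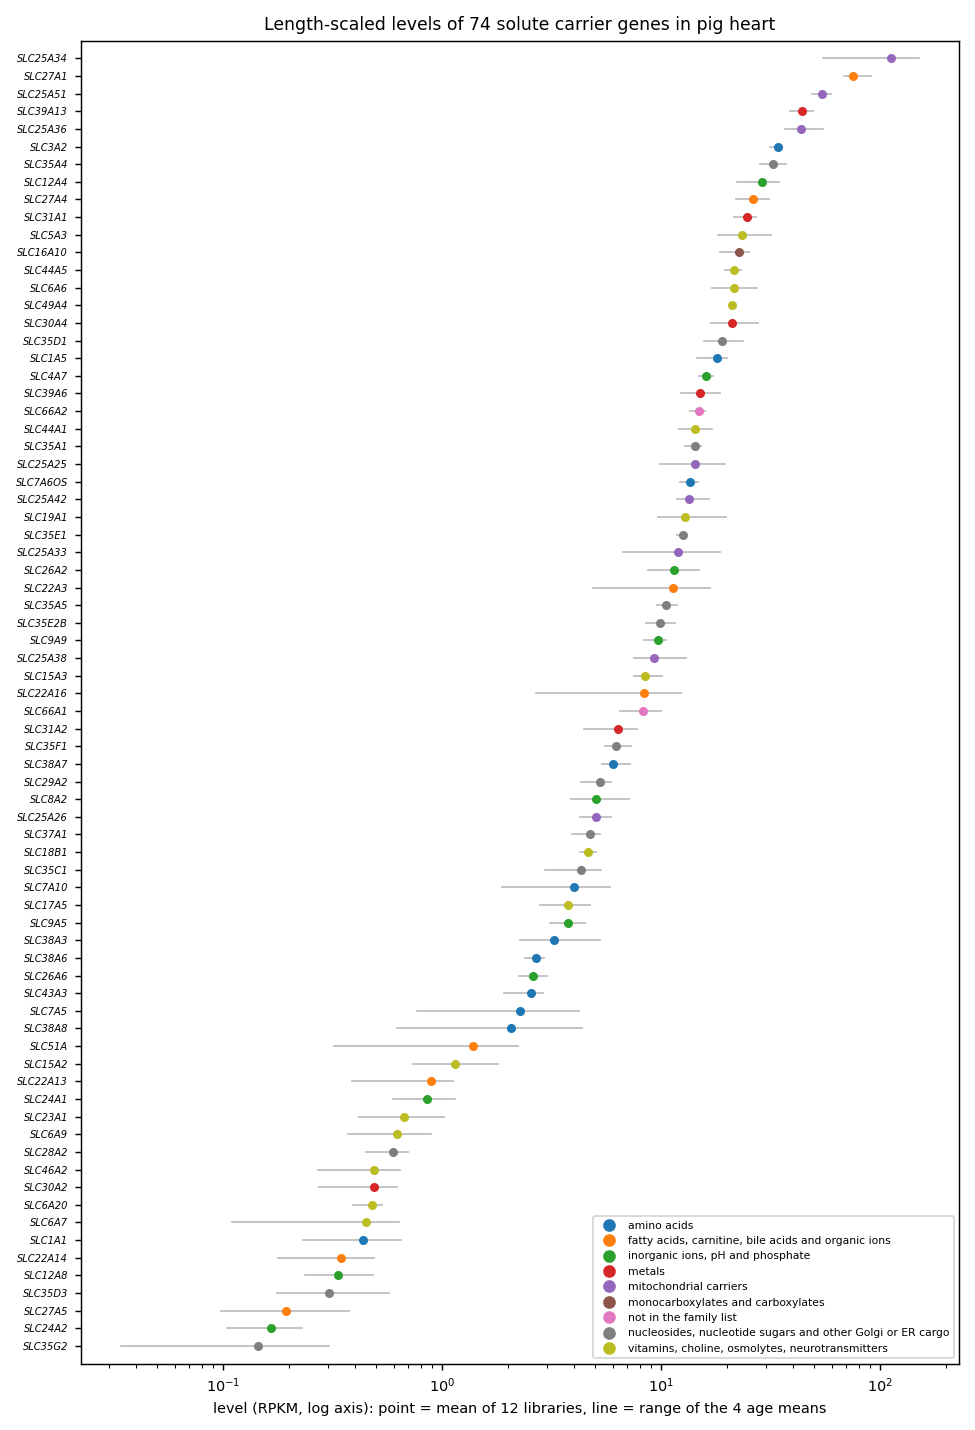
Length-scaled levels (RPKM, log axis) of 74 of the 76 solute carriers, from highest to lowest; each point is the mean of 12 libraries, the grey line spans the 4 age means and the colour gives the class of substrate. Levels run from 0.145 RPKM (SLC35G2) to 112 RPKM (SLC25A34).

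Summed over the 76 genes, the solute carriers held 4723 to 5348 CPM in every library. Comparing P28 with P1, 3 rose and 7 fell at an adjusted p under 0.05 (edgeR's quasi-likelihood test with Benjamini-Hochberg adjustment over all genes tested, called the edgeR adjusted p from here on), that is 13.2% of the set, against 15.3% of all genes. In the upward direction the share over all genes was 7.38%, and in the downward direction 7.93%. The genes that rose were SLC38A3, SLC25A38 and SLC35D1. Those that fell included SLC35C1, SLC30A4, SLC22A13, SLC51A, SLC27A4 and SLC7A10. The median log2 fold change of the 76 genes was -0.10, with 31 above 0, against 0.004 over all genes, and the median absolute log2 fold change was 0.42 against 0.31. The 3 pigs of P28 lay outside the range of the 3 pigs of P1 for 30 of the 76 genes, 11 higher and 19 lower (39.5%), beside 44.4% of all genes (22.5% higher and 21.9% lower). By the cut-off that the study states for circRNAs, applied here to edgeR values (an unadjusted p of 0.05 or less with an absolute log2 fold change over 0.5), 18 passed (23.7%), beside 23.1% of all genes. Without the P3 pig of replicate 5, which is in neither group but enters the shared estimate of the spread, 19 solute carriers passed, beside 25.6% of all genes. Without the P28 pigs of replicate 4, 5 or 6 there were 5, 6 and 4 (9.41%, 10% and 8.79% of all genes), and without the P1 pig of replicate 6 there were 6 (8.4%). SLC38A3, SLC25A38 and SLC35C1 passed in each of the 12 fits that left out 1 library.

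**Figure D2:**
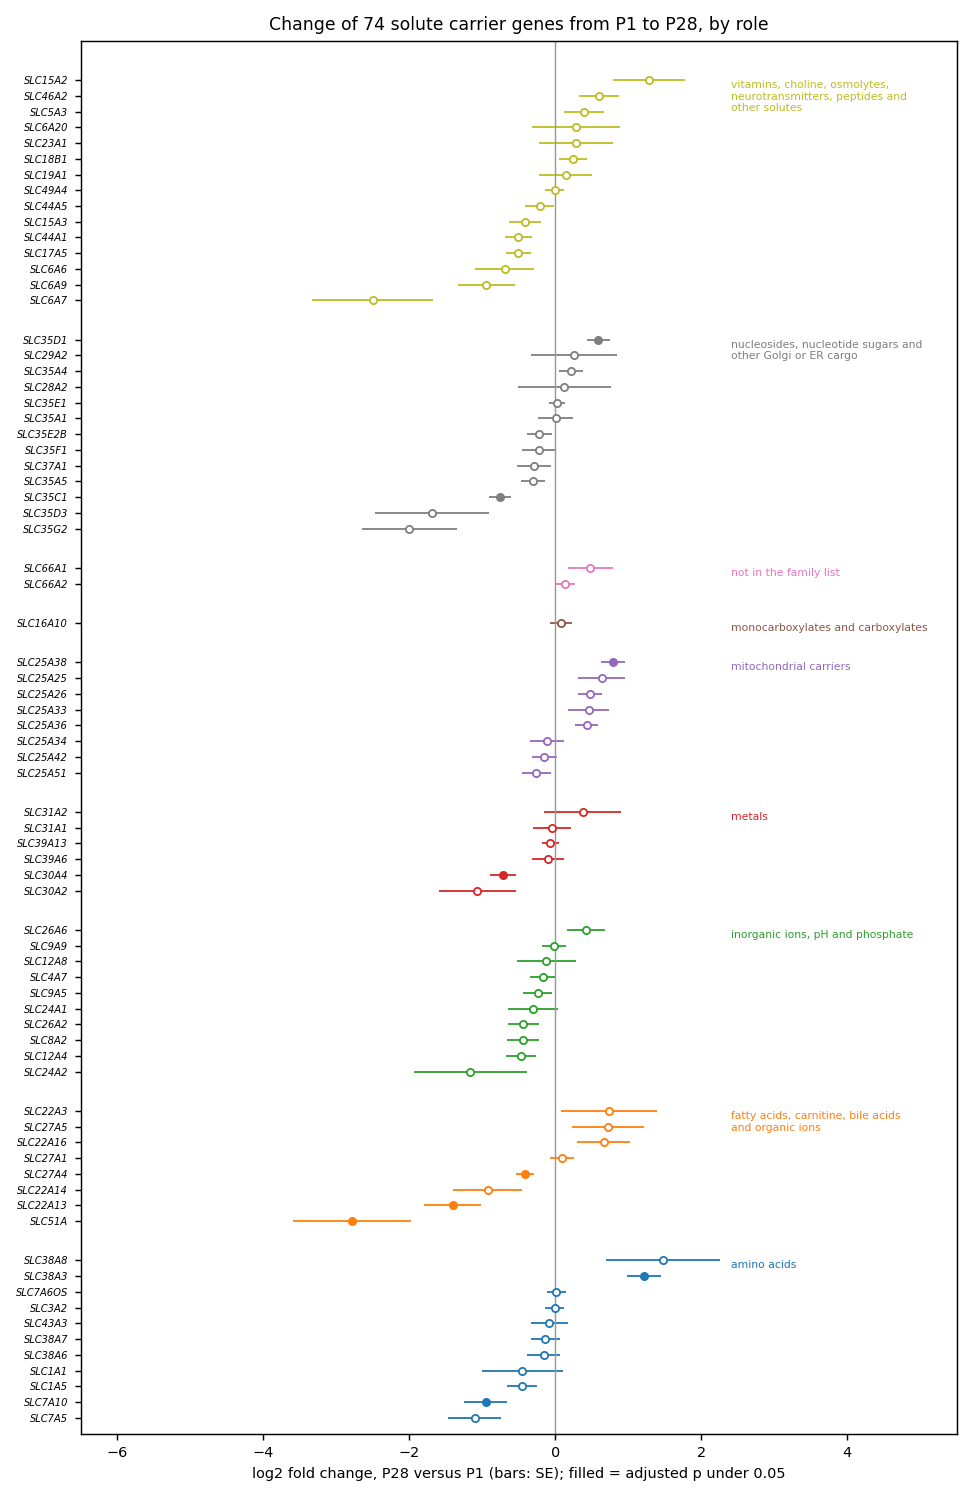
log2 fold change from P1 to P28 of 74 of the 76 solute carriers, grouped by class of substrate; points are fitted values, bars are standard errors (SE) and filled points have an edgeR adjusted p under 0.05. The 9 filled points lie in 5 of the 9 groups, 3 to the right of 0 and 6 to the left, from -2.79 (SLC51A) to 1.22 (SLC38A3).

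Among 11 members of the amino acid families, 1 rose and 1 fell from P1 to P28. SLC38A3 (chromosome 13, 32683191-32704535) encodes a sodium-coupled importer of glutamine, histidine and asparagine. It read 13.5, 11.8 and 13.6 CPM in the P1 pigs, 11.8, 20.0 and 22.5 CPM at P3, 15.2, 12.9 and 12.3 CPM at P7 and 25.1, 27.9 and 37.4 CPM at P28. The 3 P28 pigs were above the other 9 pigs, and the P3 pigs were spread between the P1 and P28 levels. The level at P28 was 2.32-fold that at P1 (log2 fold change 1.22, SE 0.23, edgeR adjusted p = 0.00516) and 2.24-fold that at P7 (edgeR adjusted p = 0.00477). SLC7A10, an exchanger of small neutral amino acids, moved the other way. It read 5.08, 6.34 and 8.98 CPM at P1, 13.7, 9.57 and 9.61 CPM at P3, 9.16, 8.24 and 8.34 CPM at P7 and 2.33, 4.53 and 3.65 CPM at P28. Every P28 pig was below every other pig, and the fall from P1 had a log2 fold change of -0.96 (SE 0.29, edgeR adjusted p = 0.0442). The fall from P7 was -1.29 (SE 0.29, edgeR adjusted p = 0.00939). The call against P1 was lost without P1 replicate 5 or 6, any P7 pig or P28 replicate 4 or 6 (adjusted p up to 0.184). That against P7 was lost in none of the 12 fits that left out 1 library. The call against P1 was also lost when scaled by total counts only and with limma voom (adjusted p = 0.0527). It was lost too in edgeR fits of only the 2 ages (adjusted p = 0.0768) or with the replicate number added (0.0673).

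SLC7A5, the light chain that exchanges large neutral amino acids such as leucine, was highest at P3 and lowest at P28. Its values were 17.2, 8.93 and 13.4 CPM at P1, 26.0, 23.2 and 51.8 CPM at P3, 12.8, 25.3 and 19.7 CPM at P7 and 5.54, 7.41 and 5.42 CPM at P28. All P3 pigs were above all P1 pigs, and all P28 pigs were below all others. From P1 to P28 the log2 fold change was -1.10 (SE 0.36, edgeR adjusted p = 0.055), short of the threshold but past it without P1 replicate 5 (-1.33, edgeR adjusted p = 0.0447) or without P3 replicate 5 or 6, whereas the fall from P7 to P28 passed (-1.65, SE 0.36, edgeR adjusted p = 0.00728). Its partner SLC3A2 stood at 76.8 ± 3.08 CPM at P1 and 76.4 ± 6.13 CPM at P28 (SD, n = 3 each), with a log2 fold change of -0.01 (SE 0.13). As a share of the SLC3A2 level per length, SLC7A5 ran from 3.25% to 5.81% at P1, from 7.92% to 23.2% at P3, from 5.26% to 9.53% at P7 and from 1.81% to 2.66% at P28. The P28 range of this ratio lay below all others and the P1 range below that of P3. SLC1A5, the glutamine and neutral amino acid exchanger, was at 57.3 ± 12.6 CPM at P1 and 41.6 ± 3.24 CPM at P28, with no overlap between the pigs but an edgeR adjusted p of 0.147. SLC38A8, a glutamine transporter, had a log2 fold change of 1.47 (SE 0.78, edgeR adjusted p = 0.221), and without the P1 pig of replicate 6 it was 3.96 (edgeR adjusted p = 0.0041). The 5 remaining members measured here (SLC1A1, SLC38A6, SLC38A7, SLC43A3 and SLC7A6OS) had log2 fold changes between -0.45 and 0.02 in that comparison, none past the test.

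Of the 8 mitochondrial carriers, 1 rose and none fell from P1 to P28, and their median log2 fold change was 0.44. SLC25A38 (chromosome 13, 24030664-24044782) carries glycine into mitochondria, where it feeds the first step of heme synthesis. It read 27.6, 22.6 and 21.4 CPM at P1, 21.0, 27.7 and 29.3 CPM at P3, 31.1, 24.2 and 26.4 CPM at P7 and 39.1, 43.8 and 41.3 CPM at P28. The 3 P28 pigs were the highest of the 12, and the earlier ages overlapped. The rise from P1 was 1.73-fold (log2 fold change 0.79, SE 0.17, edgeR adjusted p = 0.00843).

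Between P7 and P28, 12 of the 76 solute carriers passed, 5 higher and 7 lower (15.8%), against 18.8% of all genes (8.34% higher and 10.5% lower), and 4 of the 5 that rose were mitochondrial carriers. Scaling by total counts only moved the median log2 fold change of all genes to -0.12. It again gave 12 calls, 3 higher (25%) and 9 lower, but not all the same genes. SLC25A25 and SLC25A38 were lost, and SLC6A7 and SLC35C1, both lower at P28, were new. By the circRNA cut-off 16 passed (21.1%), beside 25.1% of all genes. Without the P3 pig of replicate 5 there were 20 at an adjusted p under 0.05, beside 28.3% of all genes, and without P7 replicate 4 or 5 or P28 replicate 6 there were 7, 6 and 7 (11.7%, 10.4% and 12.1% of all genes). SLC25A34 read 229, 277 and 350 CPM at P1, 431, 297 and 304 CPM at P3, 140, 99.2 and 137 CPM at P7 and 217, 217 and 357 CPM at P28. The 3 P7 pigs were lower than all others. It was the only solute carrier to pass between P1 and P7, where it fell (log2 fold change -1.19, SE 0.24, edgeR adjusted p = 0.03), and it rose again to P28 (1.08, SE 0.24, edgeR adjusted p = 0.00785). SLC25A33, a carrier of pyrimidine nucleotides, read 29.3, 13.4 and 16.7 CPM at P1, 9.14, 7.68 and 12.6 CPM at P3, 12.8, 11.2 and 14.8 CPM at P7 and 32.3, 24.5 and 24.5 CPM at P28. Its P28 pigs were above its P3 and P7 pigs, with the P1 pigs above those of P3 and overlapping those of P7 and P28, and the rise from P7 had a log2 fold change of 1.07 (SE 0.28, edgeR adjusted p = 0.0192).

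SLC25A25, a calcium-regulated carrier of ATP-magnesium and phosphate, read 49.2, 46.7 and 41.7 CPM at P7 and 89.6, 110 and 72.6 CPM at P28, with a log2 fold change of 0.99 (SE 0.32, edgeR adjusted p = 0.0495). SLC25A38 passed here too, with 0.60 (SE 0.17, edgeR adjusted p = 0.0247). SLC25A36 stood at 432 ± 50.2 CPM at P7 and 569 ± 78.5 CPM at P28 (SD, n = 3 each), and SLC25A26, the S-adenosylmethionine carrier, at 34.3 and 43.4 CPM. In both genes each P28 pig was above each P7 pig, with edgeR adjusted p of 0.0853 and 0.169. SLC25A51 and the coenzyme A carrier SLC25A42 had log2 fold changes of -0.23 and -0.04. Summed over the 8 genes, mitochondrial carriers held 993 to 1182 CPM at P7 and 1253 to 1550 CPM at P28, and 1250 to 1318 CPM at P1. Between P7 and P28, 4 of 8 cardiomyocyte markers rose and none fell, with a summed level of 77660 to 87550 CPM at P7 and 96190 to 108700 CPM at P28 and a median log2 fold change of 0.38, beside 0.50 for the 8 mitochondrial carriers. Of the other markers, 3 of 6 leukocyte and 1 of 2 neural genes rose, while both fibroblast, 2 of 5 endothelial, 1 of 3 smooth muscle and 1 of 2 erythroid genes fell, and the adipocyte gene did not pass. Their part in the rise of the mitochondrial carriers was not tested. SLC25A25 was lost without P1 replicate 6 or any P7 or P28 pig (adjusted p up to 0.155), SLC25A33 without P7 replicate 4 or 5 or P28 replicate 4 (up to 0.0896) and SLC25A38 without replicates 5 or 6 of either age (up to 0.124). SLC25A25 and SLC25A38 were also lost when scaled by total counts only. SLC25A25 was lost too with DESeq2 size factors, with 10 counts required in all 12 libraries and with the replicate number added to the fit (edgeR adjusted p = 0.0697). The count of 4 that rose from P7 to P28 was 2 when libraries were scaled by total counts only and 1 without the P7 pig of replicate 5, and the fall of SLC25A34 by P7 was lost without any 1 of 5 libraries (P1 replicates 5 and 6 and each P7 pig).

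**Figure D3:**
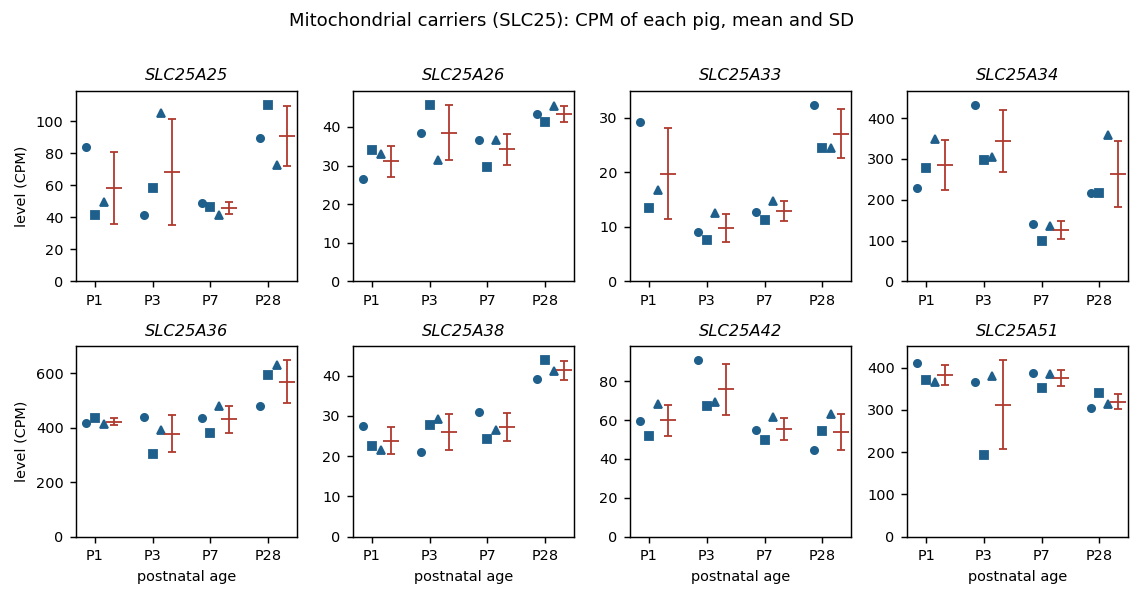
CPM of each pig for the 8 mitochondrial carriers at P1, P3, P7 and P28 (circles replicate 4, squares replicate 5, triangles replicate 6), with the mean and SD of the 3 pigs in red; axes start at 0. SLC25A34 is lowest in the 3 P7 pigs (99.2 to 140 CPM), and SLC25A38 is highest in the 3 P28 pigs (39.1 to 43.8 CPM).

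In the class that holds carriers of vitamins, choline, osmolytes, neurotransmitters and peptides, none of 16 genes rose from P1 to P28. SLC17A5, which exports sialic acid from lysosomes, was lower at P28 than at P7. Its values were 16.1, 19.3 and 15.9 CPM at P1, 14.2, 13.2 and 17.7 CPM at P3, 20.8, 21.5 and 18.6 CPM at P7 and 12.0, 12.7 and 11.3 CPM at P28. The P28 pigs were below the other 9, and the fall from P7 had a log2 fold change of -0.75 (SE 0.17, edgeR adjusted p = 0.0087). SLC6A6, the taurine transporter, stood at 178 ± 33.3 CPM at P1, 147 ± 22.2 CPM at P3, 123 ± 17.0 CPM at P7 and 110 ± 68.9 CPM at P28 (SD, n = 3 each). The P28 spread came from 1 pig, replicate 4, at 31.6 CPM beside 139 and 160 CPM, and the change from P1 did not pass (log2 fold change -0.69, SE 0.41, edgeR adjusted p = 0.268). SLC6A7, the proline transporter, read 1.49, 3.24 and 1.24 CPM at P1 and 0.482, 0.247 and 0.296 CPM at P28, with an edgeR adjusted p of 0.0583, which was 0.0192 without P3 replicate 4 and 0.022 without P3 replicate 5. The myo-inositol transporter SLC5A3 read 119, 200 and 200 CPM at P1 and 317, 190 and 175 CPM at P28, so that only the P28 pig of replicate 4 was above the P1 range. The other members of this class, apart from SLC15A2, had log2 fold changes from -0.94 (the glycine transporter SLC6A9) to 0.60 (SLC46A2) between P1 and P28. SLC15A2, a peptide importer, had 1.28 (SE 0.49, edgeR adjusted p = 0.0956), and its P28 values of 15.4, 5.11 and 5.62 CPM again put replicate 4 highest.

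Of 8 carriers of fatty acids, carnitine, bile acids and organic ions, 3 fell from P1 to P28 and none rose. SLC27A4 read 221, 205 and 223 CPM at P1, 190, 231 and 252 CPM at P3, 167, 154 and 154 CPM at P7 and 147, 174 and 163 CPM at P28. It was lower in all pigs of P7 and P28 than in those of P1, with a log2 fold change of -0.42 at P28 (SE 0.12, edgeR adjusted p = 0.0381) and of -0.45 at P7 (SE 0.12, edgeR adjusted p = 0.0735). The call at P28 was lost without any 1 of the P1, P7 or P28 pigs (adjusted p up to 0.124). It was also lost when scaled by total counts only, without the count filter and with the replicate number added to the fit (edgeR adjusted p = 0.0503). SLC27A1, which shares its substrate class, stood at 350 ± 12.2 CPM at P1 and 372 ± 12.1 CPM at P28 (SD, n = 3 each), with a log2 fold change of 0.09 (SE 0.16, edgeR adjusted p = 0.744).

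SLC22A13, an organic anion transporter of urate and nicotinate, read 2.84, 4.18 and 3.95 CPM at P1, 3.32, 5.55 and 3.05 CPM at P3, 3.77, 4.85 and 2.29 CPM at P7 and 1.93, 0.906 and 1.28 CPM at P28. The P28 pigs were the lowest 3 of the 12, at a log2 fold change from P1 of -1.40 (SE 0.39, edgeR adjusted p = 0.0303) and the same from P7 (edgeR adjusted p = 0.0257). Both calls were lost without P28 replicate 5 or 6, the first also without P1 replicate 5 or 6 and the second without P7 replicate 4 or 5 (adjusted p up to 0.111). Its neighbour SLC22A14 lies 19874 bases further along chromosome 13 and was lower still, at 2 to 21 counts per library. It passed only between P7 and P28, where it fell from 0.808, 1.40 and 0.818 CPM to 0.321, 0.576 and 0.197 CPM (log2 fold change -1.43, SE 0.45, edgeR adjusted p = 0.0435). This call was lost without any P1 or P7 pig, P3 replicate 6 or P28 replicate 4 or 6 (adjusted p up to 0.179). It was also lost with DESeq2 (adjusted p = 0.0969) and without the count filter. In edgeR fits of only the 2 ages (adjusted p = 0.0622) or with the replicate number added (0.0617) it was lost too. SLC51B, the beta subunit of a bile acid and steroid exporter, stayed below the filter with 3 counts in all. SLC51A is the alpha subunit of this exporter. It had 28, 55 and 46 counts in the P1 pigs and 0, 9 and 7 counts in the P28 pigs, which gave 2.09, 3.96 and 3.79 CPM against 0, 0.741 and 0.690 CPM (log2 fold change -2.79, SE 0.80, edgeR adjusted p = 0.0352), a call lost without P1 replicate 5 or 6 or any P28 pig (adjusted p up to 0.0908).

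SLC22A16, a carnitine transporter, was low at P3 and high later. It read 24.3, 8.64 and 11.04 CPM at P1, 4.52, 7.80 and 4.14 CPM at P3, 18.9, 27.5 and 28.8 CPM at P7 and 29.9, 22.1 and 17.6 CPM at P28. The P3 pigs were below all others. Against P1 its log2 fold change was -1.44 at P3 (SE 0.39, edgeR adjusted p = 0.16) and 0.66 at P28 (SE 0.36, edgeR adjusted p = 0.237). Without the P1 pig of replicate 4, which read above the other P1 pigs, the value at P28 was 1.24 (edgeR adjusted p = 0.029). SLC22A3, an organic cation transporter, read 141, 24.4 and 24.3 CPM at P28 and 68.2, 23.4 and 22.5 CPM at P1. In both ages the pig of replicate 4 was far above the other two.

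Carriers of nucleosides, nucleotide sugars and other cargo of the Golgi and endoplasmic reticulum numbered 13, of which 1 rose and 1 fell from P1 to P28. SLC35C1 (chromosome 2, 16647193-16658610) brings GDP-fucose into the Golgi for fucosylation. It read 26.4, 22.0 and 26.1 CPM at P1, 25.3, 26.6 and 28.1 CPM at P3, 20.7, 18.7 and 20.4 CPM at P7 and 16.9, 13.3 and 14.0 CPM at P28. The P7 pigs were below all pigs of P1 and P3, and the P28 pigs were below all others. The log2 fold change from P1 was -0.32 at P7 (SE 0.15, edgeR adjusted p = 0.314) and -0.75 at P28 (SE 0.15, edgeR adjusted p = 0.00624). SLC35D1, which brings UDP-glucuronic acid and UDP-N-acetylgalactosamine into the endoplasmic reticulum for chondroitin sulfate, rose. It read 72.3, 106 and 99.4 CPM at P1 and 147, 141 and 131 CPM at P28 (log2 fold change 0.59, SE 0.16, edgeR adjusted p = 0.0259). Its P3 pigs, at 126, 92.6 and 95.3 CPM, and its P7 pigs, at 112, 102 and 110 CPM, lay below the P28 pigs. The call was lost without P1 replicate 4 or 6 or any P28 pig (adjusted p up to 0.0795), and also when scaled by total counts only. SLC35A4 was at 88.8 ± 6.57 CPM at P1 and 103 ± 7.60 CPM at P28, and SLC35E1 at a log2 fold change of 0.03 (SE 0.11). The largest fitted change of the family was that of SLC35G2 (-2.00, SE 0.65, edgeR adjusted p = 0.0553), which rests on 7, 8 and 13 counts at P1 and 2, 3 and 1 counts at P28.

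Of 6 metal carriers, 1 fell and none rose from P1 to P28. SLC30A4 (chromosome 1, 126237032-126268102) moves zinc out of the cytosol into vesicles. It read 181, 156 and 148 CPM at P1, 118, 69.0 and 122 CPM at P3, 130, 128 and 134 CPM at P7 and 96.8, 107 and 91.2 CPM at P28. All pigs of the later ages were below all P1 pigs. The log2 fold change from P1 was -0.65 at P3 (SE 0.18, edgeR adjusted p = 0.179) and -0.72 at P28 (SE 0.18, edgeR adjusted p = 0.0205), lost without P1 replicate 4 or P28 replicate 4 or 6 (adjusted p up to 0.0764). The zinc importer SLC39A13 stood at 133 ± 10.7 CPM at P1 and 126 ± 9.32 CPM at P28, and the copper importer SLC31A1 at 94.5 ± 7.84 and 91.6 ± 8.14 CPM (SD, n = 3 each). SLC39A6, another zinc importer, had log2 fold changes of 0.29 at P7 and -0.09 at P28, neither past the test.

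None of 11 carriers of inorganic ions, protons and phosphate passed between P1 and P28. SLC12A4, which moves potassium and chloride out of the cell, was lower at P28 (177, 207 and 174 CPM) than at P7 (290, 309 and 270 CPM), with a log2 fold change of -0.64 (SE 0.20, edgeR adjusted p = 0.0459). At P1 it read 320, 205 and 250 CPM, so that the P28 pigs overlapped those of P1. The call was lost without any P7 or P28 pig, P1 replicate 6 or P3 replicate 6 (adjusted p up to 0.134). It was also lost with small structural RNAs left out before scaling and with the replicate number added to the fit (edgeR adjusted p = 0.0626). SLC9A5 had a log2 fold change of -0.24 (SE 0.20). SLC8A2, a sodium-calcium exchanger better known from neurons, read 19.1, 24.9 and 26.0 CPM at P1 and 16.9, 17.4 and 17.2 CPM at P28, with an edgeR adjusted p of 0.193. The aromatic amino acid carrier SLC16A10, the 1 member of the monocarboxylate family measured here, read 236, 222 and 195 CPM at P1, 173, 175 and 164 CPM at P7 and 216, 245 and 228 CPM at P28, and passed in no comparison.

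**Figure D4:**
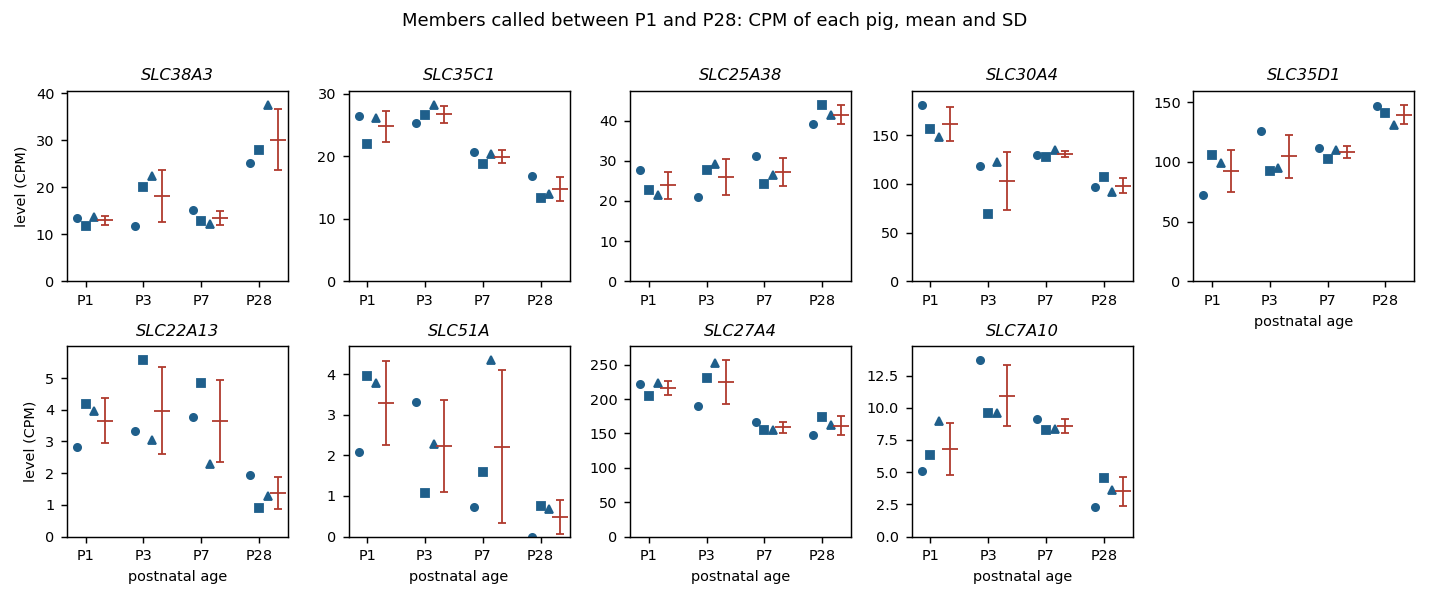
CPM of each pig for 9 of the 10 solute carriers that passed between P1 and P28 (circles replicate 4, squares replicate 5, triangles replicate 6), with the mean and SD of the 3 pigs in red; axes start at 0. SLC38A3, SLC25A38 and SLC35D1 are higher at P28, and the other 6 are lower.

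No solute carrier passed between P1 and P3, where 0.0543% of all genes did. At an unadjusted p under 0.05 there were 12 (15.8%), beside 15.2% of all genes, and DESeq2 passed 4 at an adjusted p under 0.05, beside 2.21% of all genes: SLC7A5, SLC22A16, SLC25A33 and SLC30A4. The 3 P3 pigs lay outside the P1 range for 12 genes, 7 higher and 5 lower, beside 16% of all genes (8.41% higher and 7.62% lower). By the circRNA cut-off 10 passed, beside 10.6% of all genes. Without the P3 pig of replicate 5, 11 had an unadjusted p under 0.05 (10.5% of all genes), 8 passed the circRNA cut-off (6.97% of all genes), and the 2 remaining P3 pigs lay outside the P1 range for 22 genes, 12 higher and 10 lower (24.7% of all genes). SLC38A8 had the largest fitted change. It had 4, 4 and 56 counts in the P1 pigs and 126, 105 and 158 counts in the P3 pigs, or 0.299, 0.288 and 4.61 CPM against 11.6, 12.4 and 12.4 CPM. The 3 P3 pigs agreed closely, and the P1 pig of replicate 6 was apart from the other P1 pigs. The log2 fold change was 2.83 (SE 0.79, edgeR adjusted p = 0.166), and without the P1 pig of replicate 6 it was 5.32 (edgeR adjusted p = 0.00765). By P7 it read 4.40, 5.05 and 3.76 CPM and by P28 1.61, 5.27 and 7.39 CPM.

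SLC7A5 had a log2 fold change of 1.36 at P3 (SE 0.34, unadjusted p = 0.00177, edgeR adjusted p = 0.142). SLC27A5, a bile acid-activating member of the fatty acid transport proteins, read 0.224, 0.936 and 0.659 CPM at P1 and 2.22, 1.65 and 2.19 CPM at P3 (log2 fold change 1.72, SE 0.47, edgeR adjusted p = 0.161), on 3 to 28 counts per library. SLC25A33 was lower at P3, at -1.01 (SE 0.28, edgeR adjusted p = 0.179). Of the 76 genes, 30 had their highest age mean at P3 (39.5%), beside 25.8% of all genes, and 19 at P28 (25%), beside 32.3%. The spread between pigs was widest at P3 with all pigs in, with a median coefficient of variation of 28% for the solute carriers (23.9% for all genes), against 13% to 16.6% at the other ages. Without the P3 pig of replicate 5, 28 genes had their highest mean at P3 (22.1% of all genes), 18 at P28 (35.6% of all genes), and the median coefficient of variation at P3 was 14.9% for the solute carriers (14.1% for all genes). Without the P3 pig of replicate 5 no solute carrier passed between P1 and P3 either (0.127% of all genes).

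**Figure D5:**
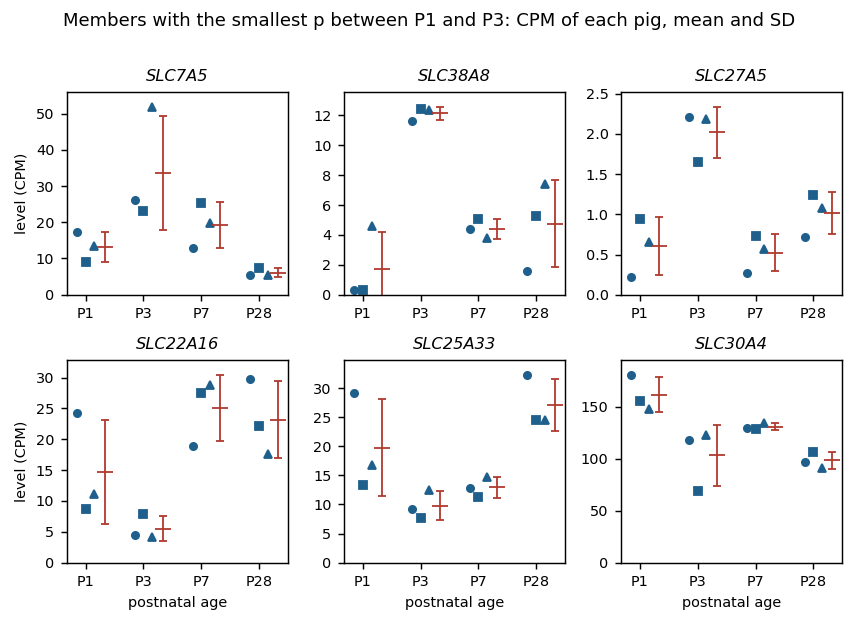
CPM of each pig for the 6 solute carriers with the smallest unadjusted p between P1 and P3 (circles replicate 4, squares replicate 5, triangles replicate 6), with the mean and SD of the 3 pigs in red; axes start at 0 and cut the lower end of 1 error bar for SLC38A8 at P1. For each gene the 3 P3 pigs lie outside the P1 range; SLC38A8 has P3 values of 11.6 to 12.4 CPM and P1 values of 0.288 to 4.61 CPM.

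Between P1 and P7, SLC25A34 was the 1 solute carrier that passed (1.32%), against 2.01% of all genes, or 0.543% in the downward direction. At an unadjusted p under 0.05 there were 4 (5.26%), beside 16.1% of all genes, and by the circRNA cut-off 2 (2.63%), beside 11.7%. The pigs of P7 lay outside the P1 range for 14 solute carriers, 12 lower and 2 higher, beside 30.6% of all genes (15.3% higher and 15.2% lower). Scaled by total counts only, the median log2 fold change of all genes moved to 0.125. The 12 lower genes included SLC27A4, SLC35C1, SLC30A4, SLC6A6, SLC39A13 and SLC3A2, and the 2 higher ones were SLC39A6 and SLC24A1. Without the P3 pig of replicate 5, SLC27A4 and SLC16A10 passed too (5.95% of all genes), and without the P1 pig of replicate 6 SLC38A8 was the 1 that passed (log2 fold change 3.87, edgeR adjusted p = 0.021, beside 0.416% of all genes).

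Genes that work with solute carriers were read in the same fit, as lists of known partners. Of 2 transporter subunits and chaperones, CHP1, which binds sodium-proton exchangers, fell from P1 to P28 (log2 fold change -0.56, SE 0.13, edgeR adjusted p = 0.0139), and LRRC8A did not pass. Of 5 ATP-driven cation pumps, 1 fell, the calcium pump ATP2B2 (-1.19, SE 0.37, edgeR adjusted p = 0.0446), which was at 2.34 CPM at P1. Of 4 ABC transporters, 1 rose, the cholesterol exporter ABCA1 (1.21, SE 0.20, edgeR adjusted p = 0.00239). Of 7 genes of the amino acid response and serine synthesis, CTH, which makes cysteine, rose (1.41, SE 0.35, edgeR adjusted p = 0.0186), whereas PSAT1 of serine synthesis (-1.80, SE 0.36, edgeR adjusted p = 0.00664) and the alanine transaminase GPT2 (-1.73, SE 0.49, edgeR adjusted p = 0.0321) fell.

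Among 8 genes of iron, zinc and copper handling, the ferritin light chain FTL rose (0.56, SE 0.12, edgeR adjusted p = 0.00784) and ceruloplasmin, CP, fell (-2.65, SE 0.51, edgeR adjusted p = 0.00513). TFRC, the transferrin receptor, went from 2294 ± 516 CPM at P1 to 928 ± 349 CPM at P3 and 1587 ± 206 CPM at P28 (SD, n = 3 each), with edgeR adjusted p against P1 of 0.0687 and 0.155. Of 9 genes of taurine, creatine, carnitine and lactate metabolism, 2 rose, the muscle creatine kinase CKM (1.54, SE 0.33, edgeR adjusted p = 0.00885) and GATM of creatine synthesis (0.61, SE 0.18, edgeR adjusted p = 0.0384), and the mitochondrial carnitine palmitoyltransferase CPT2 fell (-0.82, SE 0.16, edgeR adjusted p = 0.00654). CKM is also in the cardiomyocyte marker list.

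The counting limits some of these genes. The table gives no strand, and the span of 34 of the 76 solute carriers overlaps that of another gene. SLC25A34 shares 4707 bases with FBLIM1, which is nearly its whole span, and FBLIM1 had the higher mean count (4155 against 2994). SLC25A25 (45245 bases) and SLC35A4 (4374 bases) each share their whole span with an unnamed protein-coding gene. SLC27A4 shares 11622 bases with COQ4, SLC25A38 7364 bases with an unnamed gene and SLC7A10 828 bases with LRP3. Reads of such pairs could be exchanged.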

How the data were processed

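The authors deposited raw read counts per gene for 12 libraries, made from ribosomal RNA-depleted total RNA of pig hearts. The submitters' processing notes name STAR 2.7.9a, MultiQC 1.11 and the build Sscrofa10.2. The counter, its strand setting and its treatment of overlapping genes are not given in the sources used here. Gene positions are those of the table. All 73 solute carriers found by symbol in a RefSeq table of Sscrofa11.1 lay on the same chromosome there. Of these, 56 started within 1000 bases of its start, and the median difference was 68 bases. The printed positions thus lie close to Sscrofa11.1, while the notes name Sscrofa10.2, whose positions were not compared. Column numbers 4 to 6 differ from the numbers in the sample titles, so columns were assigned to ages only. 1 incomplete row was left out.

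Counts were tested with edgeR 4.0.16 (R 4.3.3) by the quasi-likelihood test after TMM scaling, with the 4 ages in 1 fit. Genes needed 10 counts in 3 libraries, and p-values were adjusted by Benjamini-Hochberg over 5526 genes, with calls at an adjusted p under 0.05. SE is the absolute log2 fold change divided by the root of F. CPM used TMM-scaled library sizes, and RPKM is CPM per kilobase of the table's gene length. No batch is given in the labels. P-values rest on the spread between pigs of the same age, estimated over the 4 ages together with 3 pigs per age. Age cannot be told apart from litter or from handling on the day.

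Alternatives were DESeq2 1.42.0, limma 3.58.1 (voom), other scalings and filters, 2-age fits, a replicate block, the study's circRNA cut-off and leaving out each library. The counts at P3 without P3 replicate 5 were added after the data were seen. In data simulated for P28 against P1, with 200 of 5526 genes changed, 48.5% were called at a log2 fold change of 1, 73.5% at 1.5 and 91.5% at 2. Members and gene lists were chosen with earlier results of these data known. Named genes were the solute carriers called in any comparison, the 10 highest, the most changed of each family with 3 or more members and some carriers of known cardiac roles; others were named after their values were seen. The values of 2 tested solute carriers are not reported here and are left out of the plots, while counts over the 76 genes include them.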

Additional observations from a re-analysis of the deposited data

How the results depend on the processing

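For P28 against P1, the log2 fold changes of 30 solute carriers were computed under other settings. Of these 624 values 615 kept their sign, 0 reversed a call, 43 lost the threshold and 19 passed it newly. Beside the 0, 1, 10 and 12 solute carriers called for P3, P7 and P28 against P1 and P28 against P7, DESeq2 called 4, 2, 16 and 16 (2.21%, 6.59%, 19.7% and 23.4% of all genes), fits of only the 2 ages compared called 0, 2, 17 and 19 (0.0724%, 6.24%, 21.2% and 30.4%), and the circRNA cut-off gave 10, 2, 18 and 16 (10.6%, 11.7%, 23.1% and 25.1%). Leaving out 1 library gave 0 to 1, 0 to 3, 4 to 19 and 6 to 20, while the share of all genes ran from 0.0181% to 0.29%, 0.38% to 5.95%, 8.4% to 25.6% and 10.4% to 28.3%. At the low end these left out P1 replicate 5 or a P7 pig for P7 against P1, P28 replicate 6 for P28 against P1 and P7 replicate 5 for P28 against P7. At the high end they left out P1 replicate 6 for P3 against P1 and P3 replicate 5 for the others. The cause was not tested. Other scalings, filters and limma voom gave 0, 1, 8 to 11 and 9 to 12, with 0.0216% to 0.406%, 2.01% to 3.6%, 9.94% to 15.8% and 11.7% to 19.6% of all genes. No label says whether the replicate numbers pair the pigs. Deviations from the age means correlated at -0.186 to 0.331 between libraries of the same number. For 6 of 12 libraries the nearest library of another age had the same number, and pairing was not tested further. With a replicate block the counts were 0, 1, 8 and 9 (0.127%, 1.74%, 14.2% and 18.3% of all genes). Depth limits SLC51A, SLC22A14, SLC35G2 and SLC27A5, which rest on few counts, and the simulated data show that many changes of a log2 fold change of 1 would be missed.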
